A study of Mus musculus with 11 samples.

Results

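The comparison of CEBPA-first with CSF3R-only marrow cells covers 8 of the 11 RNA sequencing samples of a mouse experiment, 4 in each group, and the 15703 of 51912 genes that passed a filter on low counts. The labels gave each sample its group. All came from the bone marrow of C57BL/6 mice, and the study took it from donors whose Cre recombinase is tamoxifen-inducible and expressed from the Rosa26 locus. Each cell carried a pair of retroviral vectors, a constitutive one (MIG, marked by GFP) and one that Cre switches on (idsRed). CEBPA-first cells had MIG-CEBPA V314VW and idsRed-CSF3R T618I, so that mutant CEBPA was present before mutant CSF3R was activated. CSF3R-only cells had MIG-CSF3R T618I and an empty idsRed vector. During transduction, both groups received IL-3, IL6, SCF and WEHI conditioned media. Lineage-negative cells positive for both fluorescent markers were then sorted and kept for 48 h in medium with 4-hydroxytamoxifen before RNA extraction. The remaining 3 samples (CSF3R-first) had the same mutants in the other order and entered the count filter, the normalization, the average level of each gene and the estimate of the spread between samples, but not the groups compared. As a model, the design has limits that hold for every result below. The oncogenes came from viral promoters, and CSF3R T618I was driven by different vectors in the groups. Mutant CSF3R was constitutive in CSF3R-only cells but in CEBPA-first cells was switched on only by the 48 h of 4-hydroxytamoxifen. Effects of mutant CEBPA therefore cannot be told apart from those of a shorter time with mutant CSF3R. The labels do not say whether replicates A to D came from separate mice, and no sample without an oncogene was compared here.

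CSF3R is the receptor for granulocyte colony-stimulating factor. It signals through JAK kinases and STAT3 and STAT5, and it drives the making of neutrophils. CEBPA encodes C/EBPα, a leucine zipper transcription factor without which progenitors do not enter the granulocyte lineage, and mutations in its C-terminal DNA-binding region occur in acute myeloid leukaemia together with CSF3R mutations. Neutrophil precursors fill their granules in a fixed order: primary granules with peroxidase and serine proteases at the promyelocyte stage, secondary granules with lactoferrin and other antimicrobial proteins later, and tertiary granules with gelatinase last. They stop dividing as they mature, so granule, cell cycle and ribosome genes report on different stages of the same path.

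The libraries held 49499527 to 65937530 counts in CSF3R-only and 49782847 to 72268346 in CEBPA-first. The 10 most abundant genes took 6.87% to 7.84% of the counts in CSF3R-only and 3.96% to 4.64% in CEBPA-first, and mitochondrial genes 0.414% to 0.515% and 0.203% to 0.511%. In a principal component analysis of the 8 samples, the first component held 84.5% of the variance and separated the groups. Levels below are CPM, counts scaled to TMM-normalized library sizes, given for replicates A, B, C and D in that order or as mean ± SD over n = 4. A level of CPM compares one gene between samples and is not corrected for gene length. A log2 fold change is CEBPA-first minus CSF3R-only from edgeR's quasi-likelihood test, with its standard error, and adjusted p-values are Benjamini-Hochberg over the 15703 genes. A gene rose or fell where its adjusted p was under 0.05 and its log2 fold change at least 1 in size. Because replicate origin is not given, these p-values measure the spread between these samples, which may be technical. The samples are bulk RNA, in which fewer cells of a type and less RNA per cell cannot be told apart.

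CEBPA-first cells differed from CSF3R-only cells in a large share of the transcriptome, and more genes fell than rose. Of the tested genes, 8.07% rose (1268 genes) and 19.0% fell (2976 genes), 27.0% together. Without the limit on fold change, 35.4% were higher and 36.6% lower at an adjusted p under 0.05, so the excess of falling genes lay in the size of the changes and not in their number. Likewise, in 34.2% of genes every CEBPA-first sample was above every CSF3R-only sample, and in 34.5% every one was below. The median called change was 1.31 among rising genes and -1.78 among falling genes. Among genes that fell, 33.0% changed 4 to 16 fold and 7.96% more than 16 fold, and among genes that rose, 17.4% and 6.70%. Falling genes were most frequent at low levels: 30.2% of the 3799 genes with an average log2 CPM under 0 fell and 10.1% rose. Among the 726 genes at a log2 CPM of 8 or more, 18% fell and 7.02% rose. By gene type, 8.34% of 12904 protein-coding genes rose and 17.0% fell, while 11.4% of 493 long intergenic non-coding RNA genes rose and 36.5% fell. The split depended on scaling: on plain library sizes, which move the median log2 fold change of all genes from -0.0045 to 0.13, there were 1754 rising and 2610 falling genes, 59.8% of the calls lower against 70.1% with TMM.

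**Figure D1:**
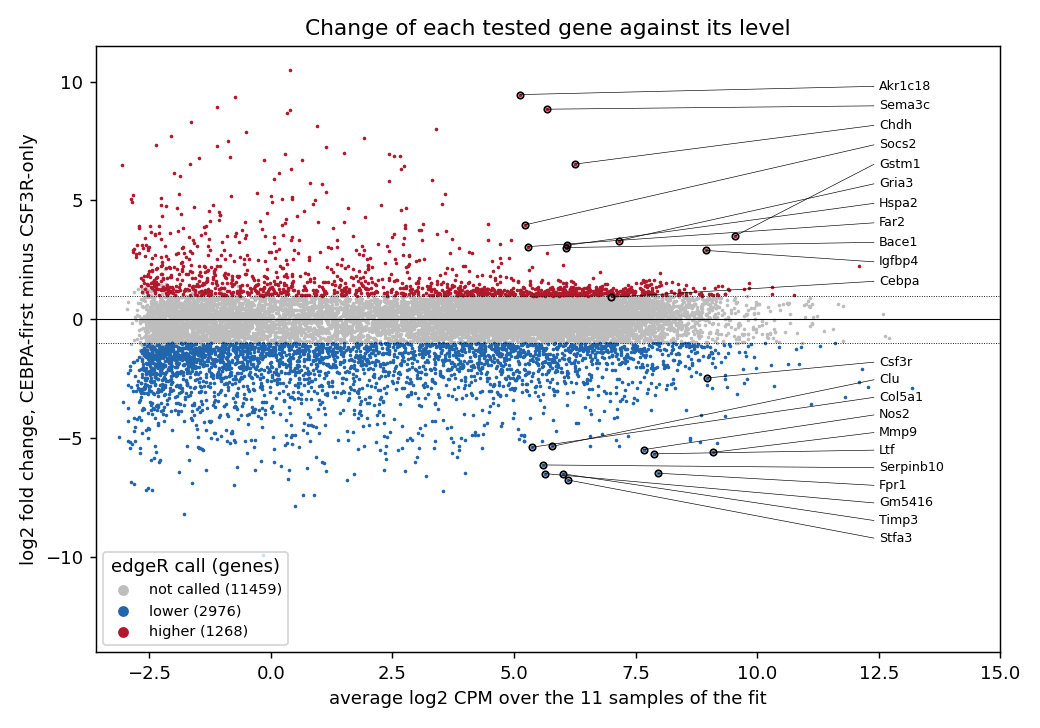
Each point is 1 of the 15703 tested genes, with its average log2 CPM on the x axis and its log2 fold change (CEBPA-first minus CSF3R-only) on the y axis. Genes called higher (1268) are red and genes called lower (2976) blue, and dotted lines mark log2 fold changes of 1 and -1. The named circles are the 10 genes that rose most, the 10 that fell most and the mouse genes Cebpa and Csf3r. The 10 in each direction were taken among called genes with an average log2 CPM of 5 or more whose groups did not overlap.

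The mouse genes that match the vector oncogenes moved in opposite directions. Cebpa was at 78.5, 85.7, 95.1 and 89.6 CPM in the CSF3R-only replicates and at 161, 170.3, 161 and 173 CPM in the CEBPA-first replicates. All CEBPA-first values were higher. The change (log2 fold change 0.93 ± 0.07, edgeR adjusted p = 1.2e-07) stayed just under the fold threshold but passed it on plain library sizes (1.07) and without the count filter (1.01). Csf3r was at 986, 779, 796 and 825 CPM in CSF3R-only and 163, 152, 168 and 131 CPM in CEBPA-first and fell (log2 fold change -2.46 ± 0.13, edgeR adjusted p = 8.2e-09). The study's vectors hold human sequences. Whether reads from them were counted at the mouse genes was not tested, so neither gene checks the labels.

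The granule lists are given in the order in which their proteins are packed. Of the 10 primary granule genes, all tested, 4 rose, 1 fell and 5 were not called, with a median log2 fold change of 0.59 beside -0.0045 for all tested genes. Prss57, a neutrophil serine protease, rose from 42.6 ± 3.34 to 168 ± 4.62 CPM (log2 fold change 1.98 ± 0.06, edgeR adjusted p = 1.8e-10). Of its exon bases, 40.7% overlap the exons of another gene, Fstl3, whose reads were not separable here. The proteases Prtn3 and Ctsg rose from 454 ± 47.6 to 1292 ± 42.9 CPM (log2 fold change 1.51 ± 0.08, edgeR adjusted p = 7.6e-09) and from 339 ± 37.5 to 896 ± 30.1 CPM (log2 fold change 1.4 ± 0.09, edgeR adjusted p = 3.1e-08). Elane, neutrophil elastase, also rose (log2 fold change 1.27 ± 0.10, edgeR adjusted p = 1.2e-07). Mpo, the peroxidase of primary granules, was at 1485 ± 116 CPM in CSF3R-only and 2737 ± 176 CPM in CEBPA-first, a change of 0.88 ± 0.09 (edgeR adjusted p = 1.5e-06) that reached the fold threshold on plain library sizes (1.01) but not with TMM. Cst7, a cathepsin inhibitor, fell (log2 fold change -1.1 ± 0.11, edgeR adjusted p = 9.7e-07), but not on plain library sizes (-0.97). Of the others not called, Ctsc and Srgn were lower in CEBPA-first (-0.63 and -0.56). Elane, Mpo, Ctsc and Srgn are given with values chosen after those values were seen.

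Most secondary granule genes fell. Of 14 tested, 12 fell and 1 rose, with a median of -2.84. Ltf, which encodes lactoferrin, was at 778, 461, 429 and 659 CPM in CSF3R-only and 14, 14.2, 10 and 8.03 CPM in CEBPA-first. The lowest CSF3R-only sample was far above the highest CEBPA-first sample (log2 fold change -5.65 ± 0.34, edgeR adjusted p = 1.7e-08). Ngp, a neutrophil granule protein, was at 1118, 805, 803 and 1060.2 CPM and 40.1, 27.3, 26.3 and 20.2 CPM, with the same order of groups (log2 fold change -5.05 ± 0.32, edgeR adjusted p = 2.7e-08). Camp, the cathelicidin antimicrobial peptide, fell from a much lower level, from 18.7 ± 3.4 to 0.562 ± 0.228 CPM (log2 fold change -5.08 ± 0.32, edgeR adjusted p = 2.8e-08). Lcn2, lipocalin 2, whose values were chosen after they were seen, fell from 2365 ± 269 to 342 ± 50.7 CPM (log2 fold change -2.79 ± 0.18, edgeR adjusted p = 2.8e-08). The exception was Chil3, a chitinase-like secretory protein, at 1457, 1142, 855 and 1215 CPM in CSF3R-only and 6976, 5307, 5934 and 4195 CPM in CEBPA-first. It rose (log2 fold change 2.26 ± 0.20, edgeR adjusted p = 4.1e-07), and Mmp8 was the only secondary granule gene not called.

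Of the granule lists, tertiary granule and late neutrophil genes had the lowest median. Of 18 tested, 16 fell, 2 (Slpi and Dgat2) were not called and none rose, with a median of -3.48. Mmp9, gelatinase B, was at 1402, 1068, 1234 and 1284 CPM in CSF3R-only and 26.8, 27, 28 and 21.8 CPM in CEBPA-first (log2 fold change -5.59 ± 0.23, edgeR adjusted p = 9.7e-10). Stfa3, a stefin that inhibits cysteine proteases, was at 189.6, 157, 162 and 172 CPM and 1.81, 1.5, 1.79 and 1.25 CPM, the largest fall among the 10 abundant genes that fell most (log2 fold change -6.76 ± 0.27, edgeR adjusted p = 7.2e-10). Its neighbour Stfa2 fell from 321 ± 29 to 8.14 ± 1.27 CPM (log2 fold change -5.31 ± 0.21, edgeR adjusted p = 7.2e-10). Stfa1, a gene the study names, was at 1349, 1108, 941 and 1183 CPM and 37.9, 28.8, 27.7 and 31.2 CPM (log2 fold change -5.19 ± 0.21, edgeR adjusted p = 8.3e-10). A near-identical stretch in other genes, chiefly BC100530, covers 67.9% of the Stfa1 transcript, so its reads may be shared with that paralogue. These stefins lie in a row of 15 neighbouring tested genes at chr16:36156811-36666081 (GRCm38) that all fell, with log2 fold changes from -6.76 to -1.24. The row runs from Stfa2l1 to Cd86, was the longest such row found and was picked after its values were seen.

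**Figure D2:**
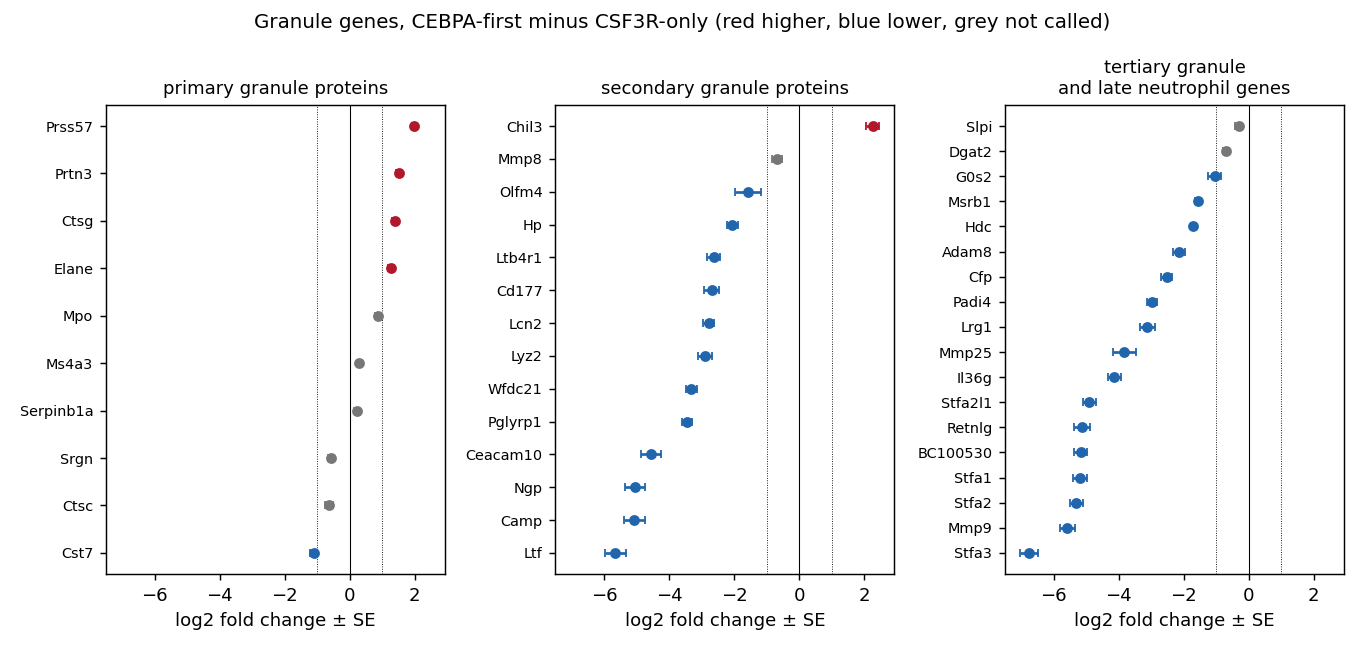
Points are log2 fold changes (CEBPA-first minus CSF3R-only, x axis) and bars are standard errors from the edgeR fit, for the tested members of 3 granule lists named on the y axes. Primary granule genes lie mostly right of 0 with Prss57 at 1.98, secondary granule genes left of 0 apart from Chil3 at 2.26, and all tertiary and late genes left of 0 down to Stfa3 at -6.76.

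The share of promoters with letters that fit a C/EBP site varied between the lists that fell, and 3 promoters of strongly falling genes that held matches are shown as examples. The motif searched was TTNNGNAA on both strands, where N is any base, in RefSeq promoters of GRCm38.p6 from 250 bases before to 50 bases after the start. It was in 8 of 12 secondary granule promoters (66.7%), 6 of 15 tertiary and late neutrophil promoters (40.0%), 12 of 16 chemoattractant and adhesion receptor promoters (75%) and 2 of 8 primary granule promoters (25%), against 32.3% of the 10936 tested genes with a promoter in the table. Other lists in which falling members outnumbered rising ones lay on both sides of that share, from eosinophil markers (5 of 7), pattern recognition and immunoreceptor genes (15 of 23) and lysosome genes (14 of 28) to S100 and annexin genes (3 of 10), C/EBP and myeloid transcription factors (2 of 19) and NADPH oxidase genes (0 of 3). Over all calls, 36.8% of 1920 promoters of falling genes and 31.8% of 896 promoters of rising genes held it. A match is a description of the letters and not of binding. The sequences run 5′ to 3′ on the gene's strand, with every match in capitals.
Ltf promoter, chr9:111019042-111019341, plus strand: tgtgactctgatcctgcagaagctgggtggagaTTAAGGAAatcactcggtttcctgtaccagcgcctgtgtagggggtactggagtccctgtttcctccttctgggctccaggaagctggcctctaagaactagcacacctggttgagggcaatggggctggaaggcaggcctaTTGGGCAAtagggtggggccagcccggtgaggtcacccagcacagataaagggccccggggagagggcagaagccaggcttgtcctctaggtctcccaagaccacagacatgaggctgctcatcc
Ngp promoter, chr9:110419558-110419857, plus strand: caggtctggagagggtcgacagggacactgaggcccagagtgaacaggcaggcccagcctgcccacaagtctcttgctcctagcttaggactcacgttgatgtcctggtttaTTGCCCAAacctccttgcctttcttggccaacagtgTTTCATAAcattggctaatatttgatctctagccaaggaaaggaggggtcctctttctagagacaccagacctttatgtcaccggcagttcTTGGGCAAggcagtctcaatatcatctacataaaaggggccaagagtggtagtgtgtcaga
Fpr1 promoter, chr17:17883890-17884189, minus strand: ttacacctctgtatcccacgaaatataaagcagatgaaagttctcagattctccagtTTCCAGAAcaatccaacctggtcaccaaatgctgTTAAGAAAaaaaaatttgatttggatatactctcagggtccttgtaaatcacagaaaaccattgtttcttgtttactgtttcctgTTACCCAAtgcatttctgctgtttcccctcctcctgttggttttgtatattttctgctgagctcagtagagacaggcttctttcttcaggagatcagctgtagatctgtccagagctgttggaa
The Ltf promoter held 2 matches and the Ngp and Fpr1 promoters 3 each.

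Genes for sensing and killing microbes fell with the late granule genes. Of 12 tested S100 and annexin genes, 9 fell and none rose. S100a8 and S100a9, which form the calprotectin dimer, were among the most abundant transcripts. S100a9 was at 9470.4, 8332, 7423 and 8337 CPM in CSF3R-only and 1335, 992, 1306 and 985 CPM in CEBPA-first (log2 fold change -2.86 ± 0.17, edgeR adjusted p = 1.8e-08). S100a8, with values chosen after they were seen, fell from 7077 ± 755 to 1131 ± 159.7 CPM (log2 fold change -2.65 ± 0.16, edgeR adjusted p = 1.8e-08). S100a6 fell from 284 ± 21.9 to 20.8 ± 3.24 CPM, and S100a4 had a change of -2.8 ± 0.18 (edgeR adjusted p = 2.8e-08), though 51.7% of its exon bases overlap another gene.

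Of 20 tested chemoattractant and adhesion receptor genes, 15 fell and none rose, and Fpr3 had at most 2 counts in any sample. Fpr1, a receptor for bacterial formyl peptides, was at 655, 525, 489 and 558 CPM in CSF3R-only and 7.57, 6.65, 6.09 and 4.88 CPM in CEBPA-first (log2 fold change -6.47 ± 0.28, edgeR adjusted p = 1.4e-09). Fpr2, its relative, fell from 102 ± 9.76 to 2.99 ± 0.45 CPM (log2 fold change -5.1 ± 0.25, edgeR adjusted p = 3.4e-09), and C5ar1, the complement C5a receptor, from 452 ± 29.6 to 32.2 ± 8.61 CPM (log2 fold change -3.81 ± 0.24, edgeR adjusted p = 2.6e-08). Cxcr2, the integrin genes Itgam, Itgax, Itgb2 and Itgal, and the granulocyte antigen gene Ly6g also fell. Of 30 pattern recognition and immunoreceptor genes, 20 fell and none rose. Clec4n, which encodes the lectin receptor dectin-2, had a change of -3.42 ± 0.24 (edgeR adjusted p = 6.9e-08), Tlr13, a sensor of bacterial ribosomal RNA, one of -3.08 ± 0.21 (edgeR adjusted p = 5.8e-08), and Sirpb1a one of -2.94 ± 0.24 (edgeR adjusted p = 2.3e-07), with 80.4% of its transcript near-identical to other genes. Of the 6 phagocyte NADPH oxidase genes, 4 fell. Cybb, the catalytic subunit, was at 1718, 1413, 1283 and 1628 CPM and 315, 247, 282 and 215 CPM (log2 fold change -2.51 ± 0.18, edgeR adjusted p = 7.6e-08), and the cytosolic subunit gene Ncf4 fell by 1.44 on the log2 scale.

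Markers of other marrow cells moved with these genes. Of 23 tested monocyte and macrophage markers (24 listed), 18 fell and 1 rose, and their summed level was 11400 to 12390 CPM in CSF3R-only and 4467 to 6944 CPM in CEBPA-first. Of their defining genes, Csf1r, the receptor for macrophage colony-stimulating factor, fell from 1126 ± 161 to 223 ± 37.2 CPM (log2 fold change -2.34 ± 0.20, edgeR adjusted p = 3.8e-07, values chosen after they were seen), with 18.6% of its transcript near-identical to stretches of other genes. Many of the receptor, lysosome and oxidase genes are shared by monocytes and neutrophils, and the part of the other cell types in the granule and receptor results was not tested. Marco, a scavenger receptor, fell from 2.53 ± 0.878 to 0.088 ± 0.114 CPM (log2 fold change -4.96 ± 0.87, edgeR adjusted p = 0.00018), Cx3cr1, the fractalkine receptor, from 43.4 ± 7.33 to 1.97 ± 0.239 CPM (log2 fold change -4.46 ± 0.21, edgeR adjusted p = 2.9e-09), and Apoe, apolipoprotein E, from 700.0 ± 93.1 to 50.5 ± 26 CPM (log2 fold change -3.8 ± 0.38, edgeR adjusted p = 1.6e-06). Cd163, another scavenger receptor, rose from 0.314 ± 0.064 to 1.1 ± 0.238 CPM (log2 fold change 1.8 ± 0.25, edgeR adjusted p = 2.6e-05), and Timd4 had at most 1 count in any sample.

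Megakaryocyte and platelet genes were the list with the largest share of falling members. Of 18 tested, 17 fell and none rose, with a median of -4.74, and their summed level was 1876 to 2464 CPM in CSF3R-only and 348.6 to 681.1 CPM in CEBPA-first. Gp6, the platelet collagen receptor, was at 5.66, 6.93, 6.29 and 8.73 CPM in CSF3R-only and 0.0342, 0.119, 0.0576 and 0.0383 CPM in CEBPA-first (log2 fold change -6.78 ± 0.28, edgeR adjusted p = 9.6e-10). Treml1, a platelet granule receptor, fell from 13.7 ± 1.78 to 0.303 ± 0.131 CPM (log2 fold change -5.49 ± 0.24, edgeR adjusted p = 1.5e-09). Tubb1, the platelet β-tubulin, was at 2.81, 3.08, 2.9 and 3.63 CPM in CSF3R-only and had 9 counts over all 4 CEBPA-first samples. Pf4, platelet factor 4, and Itga2b, integrin αIIb, both with values chosen after they were seen, had changes of -3.5 ± 0.17 (edgeR adjusted p = 3.0e-09) and -1.8 ± 0.22 (edgeR adjusted p = 8.8e-06).

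Erythroid and eosinophil genes fell as well. Of 24 tested erythroid markers, 17 fell and none rose, with a median of -2.42. Their summed level, 1087 to 1572 CPM in CSF3R-only and 901.9 to 985.3 CPM in CEBPA-first, differed by a ratio of means of 0.707, a smaller change than that median. Hbb-bs, a β-globin, was at 54.5, 52, 66.5 and 65.1 CPM and 0.924, 1.96, 2.28 and 2.18 CPM (log2 fold change -5.01 ± 0.33, edgeR adjusted p = 4.2e-08), and Hba-a2, an α-globin whose transcript is near-identical to Hba-a1 over 97.1% of its length, had a change of -5.33 ± 0.38 (edgeR adjusted p = 7.3e-08). Trim10 fell from 2.94 ± 0.558 to 0.0693 ± 0.00541 CPM (log2 fold change -5.37 ± 0.25, edgeR adjusted p = 2.3e-09). Of 8 tested eosinophil markers, 5 fell and none rose, and the sum of the list was 250.1 to 379.3 CPM in CSF3R-only and 31.6 to 39.59 CPM in CEBPA-first. Prg2, major basic protein, was at 289, 192, 242 and 293 CPM and 16.2, 16.6, 14.9 and 22.5 CPM (log2 fold change -3.85 ± 0.27, edgeR adjusted p = 7.6e-08). Epx, eosinophil peroxidase, and Ear6, an eosinophil ribonuclease, had changes of -3.92 ± 0.68 (edgeR adjusted p = 0.00017) and -5.07 ± 0.66 (edgeR adjusted p = 1.3e-05).

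Of the mast cell and dendritic cell markers, more fell than rose, and lymphoid and stromal markers were called in both directions. Of all tested genes, 8.07% rose and 19.0% fell. Of 14 tested mast cell and basophil markers, 8 fell and 1 rose, with sums of 1985 to 3087 CPM and 1399 to 1887 CPM. The mast cell protease genes Mcpt4, Mcpt2 and Mcpt1 had changes of -3.77 ± 0.33 (edgeR adjusted p = 5.1e-07), -3.54 ± 0.22 (edgeR adjusted p = 2.8e-08) and -2.77 ± 0.30 (edgeR adjusted p = 2.4e-06). Fcer1a, the α chain of the IgE receptor, was at 86.2, 128, 145 and 109.6 CPM in CSF3R-only and 207, 248, 228 and 357 CPM in CEBPA-first and rose (log2 fold change 1.15 ± 0.20, edgeR adjusted p = 0.00017), but not without CEBPA-first replicate D (0.96). Of 12 tested dendritic cell and MHC class II markers, 6 fell and 1 rose, with sums of 373 to 510.7 CPM and 131.1 to 193.7 CPM. The class II genes H2-Eb1 and H2-Aa had changes of -2.11 ± 0.20 (edgeR adjusted p = 8.9e-07) and -1.91 ± 0.21 (edgeR adjusted p = 3.0e-06), and the transcription factor Zbtb46 one of -2.35 ± 0.35 (edgeR adjusted p = 4.6e-05). The B cell list summed to 5.227 to 6.588 CPM in CSF3R-only and 12.11 to 15.63 CPM in CEBPA-first, and 7 of its 12 genes were not tested, Pax5 and Rag1 with at most 1 count in any sample. Of the 5 tested, 2 rose and 1 fell. The largest change was that of Dntt, the terminal transferase of early lymphoid progenitors, at 0.0216, 0.0601, 0.0605 and 0 CPM and 6.25, 4.52, 6.11 and 4.9 CPM (log2 fold change 7.24 ± 0.52, edgeR adjusted p = 8.0e-08). Igll1, the surrogate light chain, had 5 counts over the CSF3R-only samples and 77 over the CEBPA-first samples. Cd79a, a signalling chain of the B cell receptor, fell, with 127 and 33 counts over the groups (log2 fold change -2.21 ± 0.36, edgeR adjusted p = 8.9e-05). The T and NK cell list overlapped between the groups, at 299.5 to 689.3 CPM and 404 to 580.3 CPM, with Cd3e, Cd8a and Ncr1 at 0 in all 8 samples. Of its 7 tested genes, Klrb1c, Tcf7 and Lck rose (3.09, 1.38 and 1.3), and Cd3d and Nkg7 fell (-2.25 and -1.15). The stromal and endothelial list was at 26.97 to 31.83 CPM and 27.52 to 30.51 CPM, with Col3a1, Cxcl12 and Lum at 0. Of its 6 tested genes, Col1a2 and Pdgfrb rose (4.34 and 1.6), and Acta2 and Col1a1 fell (-2.43 and -1.13), Col1a1 not without CSF3R-only replicate A or CEBPA-first replicate D.

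**Figure D3:**
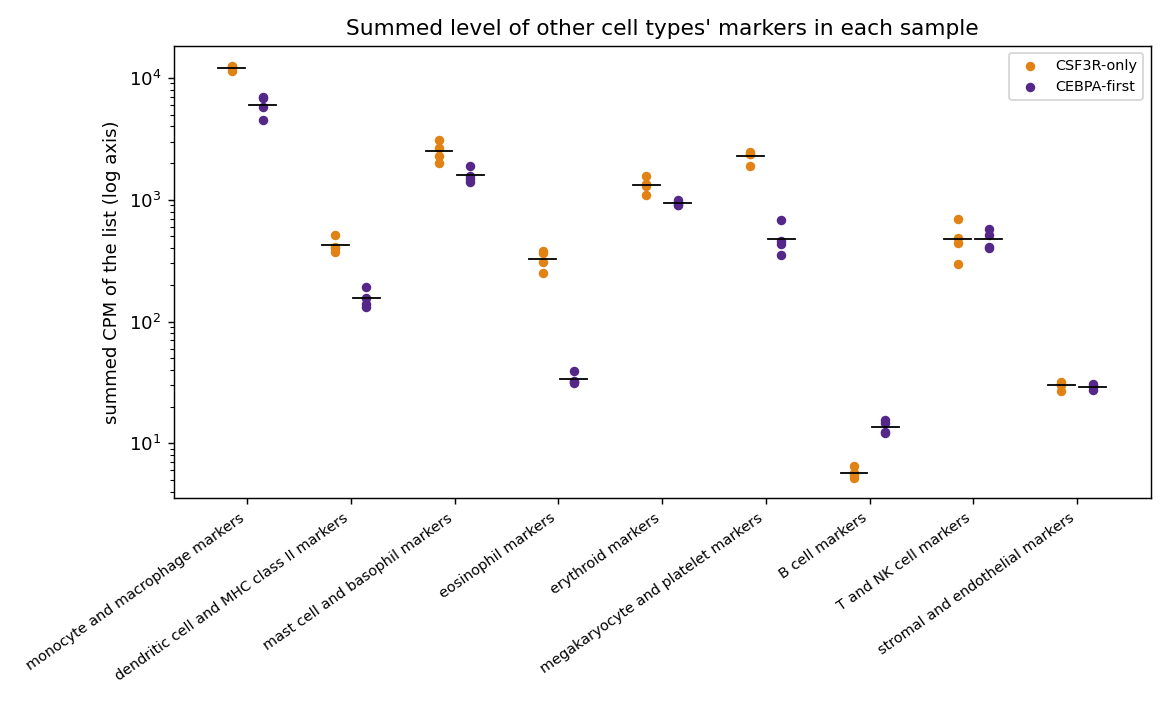
Each point is 1 sample, the y axis is the summed CPM of all listed markers of a cell type on a log axis, the x axis names the list, and black bars are means of the 4 samples of a group. CEBPA-first samples lie below CSF3R-only samples for 6 of the 9 lists, above for B cell markers, and overlap them for T and NK cell markers and for stromal and endothelial markers.

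The transcription factors that direct myeloid differentiation fell in part. Of 27 tested, 13 fell, none rose (2 on plain library sizes) and 14 were not called, with a median of -0.96. Cebpe, the C/EBP of secondary granule synthesis, was at 62.8, 52.6, 53.5 and 61.6 CPM in CSF3R-only and 27.6, 25, 30.4 and 27 CPM in CEBPA-first (log2 fold change -1.07 ± 0.13, edgeR adjusted p = 5.9e-06), a call lost on plain library sizes and without the count filter. Cebpb fell from 677 ± 115 to 209 ± 21.5 CPM (log2 fold change -1.69 ± 0.16, edgeR adjusted p = 6.9e-07), with 20.7% of its exon bases in another gene, and Cebpd fell too. Spi1, which encodes PU.1, was at 664 ± 40.1 CPM in CSF3R-only and 341 ± 14.7 CPM in CEBPA-first, a change of -0.96 ± 0.10 (edgeR adjusted p = 1.3e-06) that passed the threshold only without CSF3R-only replicate C (-1.0). Gfi1, a repressor needed for neutrophil commitment, was higher (log2 fold change 0.91 ± 0.06, edgeR adjusted p = 7.2e-08) and passed the threshold on plain library sizes only (1.04). The values of Cebpe, Cebpb, Spi1 and Gfi1 were chosen after they were seen. The members that fell most by rule were Maf and Klf2, factors of macrophages and of quiescent leukocytes, at -2.78 ± 0.27 (edgeR adjusted p = 1.0e-06) and -2.52 ± 0.17 (edgeR adjusted p = 5.6e-08), and Egr2 at -2.48 ± 0.27 (edgeR adjusted p = 2.8e-06).

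Of 23 tested JAK, STAT and feedback genes downstream of CSF3R, 1 rose and 6 fell, shares not far from the 8.07% and 19.0% of all tested genes. Socs2 was at 4.97, 6.07, 6.97 and 4.59 CPM in CSF3R-only and 82.5, 88.8, 84.9 and 98.1 CPM in CEBPA-first (log2 fold change 3.97 ± 0.18, edgeR adjusted p = 2.0e-09). Socs3, the main inhibitor of CSF3R signalling, moved the opposite way, from 669, 596, 586 and 616 CPM to 245, 224, 264 and 197 CPM (log2 fold change -1.41 ± 0.11, edgeR adjusted p = 1.7e-07). Cish fell by a fitted 1.01 (edgeR adjusted p = 7.8e-07) from 15.1 ± 1.85 to 7.52 ± 0.331 CPM and lost the call with DESeq2, on plain library sizes, without the count filter, and without CSF3R-only replicate A, C or D or CEBPA-first replicate C. Pim1, a kinase gene induced by STAT5, was higher but under the threshold (log2 fold change 0.69 ± 0.06, edgeR adjusted p = 6.2e-07), and Stat3 lower but under it (log2 fold change -0.58 ± 0.07, edgeR adjusted p = 7.5e-06). Bcl6, a repressor the study names, was at 130.3, 101, 102 and 116 CPM and 24.1, 19.1, 24.3 and 15.8 CPM (log2 fold change -2.43 ± 0.19, edgeR adjusted p = 1.4e-07). Il1rn and Junb fell (-2.5 ± 0.29 (edgeR adjusted p = 5.9e-06) and -1.42 ± 0.11 (edgeR adjusted p = 1.5e-07)). The values of Socs3, Cish, Pim1 and Stat3 were chosen after they were seen.

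Because Socs3 and Cish are STAT targets whose proximal promoters hold the searched STAT motif, these are printed as examples. The motif was TTCNNNGAA, which reads the same on both strands, and it was in 3 of 20 promoters of this list (15%) and in 6.91% of promoters of tested genes. Matches are in capitals.
Socs3 promoter, chr11:117969317-117969616, minus strand: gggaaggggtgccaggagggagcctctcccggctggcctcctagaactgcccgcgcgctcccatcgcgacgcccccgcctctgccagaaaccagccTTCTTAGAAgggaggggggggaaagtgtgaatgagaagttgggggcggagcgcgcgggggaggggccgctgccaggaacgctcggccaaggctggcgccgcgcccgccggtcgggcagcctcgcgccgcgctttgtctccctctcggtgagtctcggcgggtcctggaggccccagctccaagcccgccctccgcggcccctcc
Cish promoter, chr9:107296409-107296708, plus strand: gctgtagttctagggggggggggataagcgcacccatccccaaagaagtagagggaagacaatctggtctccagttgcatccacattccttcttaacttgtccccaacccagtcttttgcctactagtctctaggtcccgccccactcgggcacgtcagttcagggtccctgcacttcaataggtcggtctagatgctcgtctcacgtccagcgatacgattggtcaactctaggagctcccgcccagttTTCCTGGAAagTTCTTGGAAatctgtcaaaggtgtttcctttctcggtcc
The Socs3 promoter held 1 match and the Cish promoter 2.

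Among 23 tested cytokine receptor genes, 10 fell and 2 rose, beside 19.0% and 8.07% of all genes. Beside Csf3r, Il7r, the interleukin 7 receptor, fell from 41.3 ± 7.86 to 7.7 ± 0.615 CPM (log2 fold change -2.42 ± 0.12, edgeR adjusted p = 4.6e-09). Il6st, the shared gp130 chain, rose from 97.2 ± 6.01 to 279 ± 29.3 CPM (log2 fold change 1.52 ± 0.08, edgeR adjusted p = 6.1e-09). Flt3, a receptor of multipotent and lymphoid progenitors, rose from 2.34 ± 0.557 to 6.6 ± 0.622 CPM (log2 fold change 1.5 ± 0.23, edgeR adjusted p = 5.4e-05). Kit, the stem cell factor receptor, was at 23.9, 26, 31.4 and 29.2 CPM and 35.5, 40.6, 28.9 and 34.4 CPM, where the groups overlapped and the change was 0.33 ± 0.12 (edgeR adjusted p = 0.025), with values chosen after they were seen.

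Some stem and progenitor transcription factors rose. Of 29 tested, 9 rose (Mecom, Hlf, Myb, Myc, Hoxa5, Sox4, Prdm16, Lmo2 and Tcf4) and 3 fell, beside 8.07% and 19.0% of all tested genes. Mecom, which encodes EVI1 and is active in stem cells and in high-risk leukaemias, was at 0.173, 0.12, 0.181 and 0.206 CPM in CSF3R-only and 15.1, 17.5, 16 and 13.1 CPM in CEBPA-first (log2 fold change 6.47 ± 0.23, edgeR adjusted p = 3.9e-10). The CSF3R-only libraries held 6 to 13 counts of it each. Hlf, a stem cell leucine zipper factor, was at 2.22, 3.42, 3.12 and 2.9 CPM and 10.7, 14.6, 12.2 and 18.4 CPM (log2 fold change 2.26 ± 0.18, edgeR adjusted p = 1.9e-07). Myb, which keeps progenitors immature, was at 88.6, 111, 124 and 108 CPM and 318, 349, 323 and 333 CPM (log2 fold change 1.62 ± 0.11, edgeR adjusted p = 7.4e-08). Myc rose from 158 ± 27.7 to 465 ± 16.3 CPM (log2 fold change 1.56 ± 0.13, edgeR adjusted p = 2.3e-07, values chosen after they were seen). Not all factors of immature cells went this way: Meis1, a partner of HOX proteins, fell (-1.55 ± 0.14 (edgeR adjusted p = 5.2e-07)), and so did Gfi1b, a factor of the erythroid and platelet branch (log2 fold change -1.07 ± 0.22, edgeR adjusted p = 0.00061), whose call was lost without CSF3R-only replicate C. Hoxa9, with values chosen after they were seen, was higher (log2 fold change 0.95 ± 0.16, edgeR adjusted p = 0.00011) and passed the threshold on plain library sizes, without the count filter and without CSF3R-only replicate C (1.06).

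Surface genes of stem and progenitor cells mostly fell. Of 18 tested, 10 fell and 1 (Flt3) rose, with a median of -1.41. Esam, an endothelial and stem cell adhesion molecule, fell from 8.51 ± 1.38 to 0.387 ± 0.0914 CPM (log2 fold change -4.44 ± 0.29, edgeR adjusted p = 4.2e-08), and Cd9, a tetraspanin also abundant on platelets, from 213, 242, 231 and 239.9 CPM to 28.7, 25.7, 27.5 and 26.9 CPM (log2 fold change -3.09 ± 0.09, edgeR adjusted p = 1.3e-10). Cd34, with values chosen after they were seen, was at 72, 97, 93.6 and 92.6 CPM and 16.1, 19.8, 17.8 and 17.8 CPM (log2 fold change -2.31 ± 0.18, edgeR adjusted p = 1.5e-07). Ly6a, Slamf1, Procr, Prom1, Itga2b and Eng also fell. Several of these genes are expressed on megakaryocytes or endothelium as well, and the platelet list fell beside them.

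**Figure D4:**
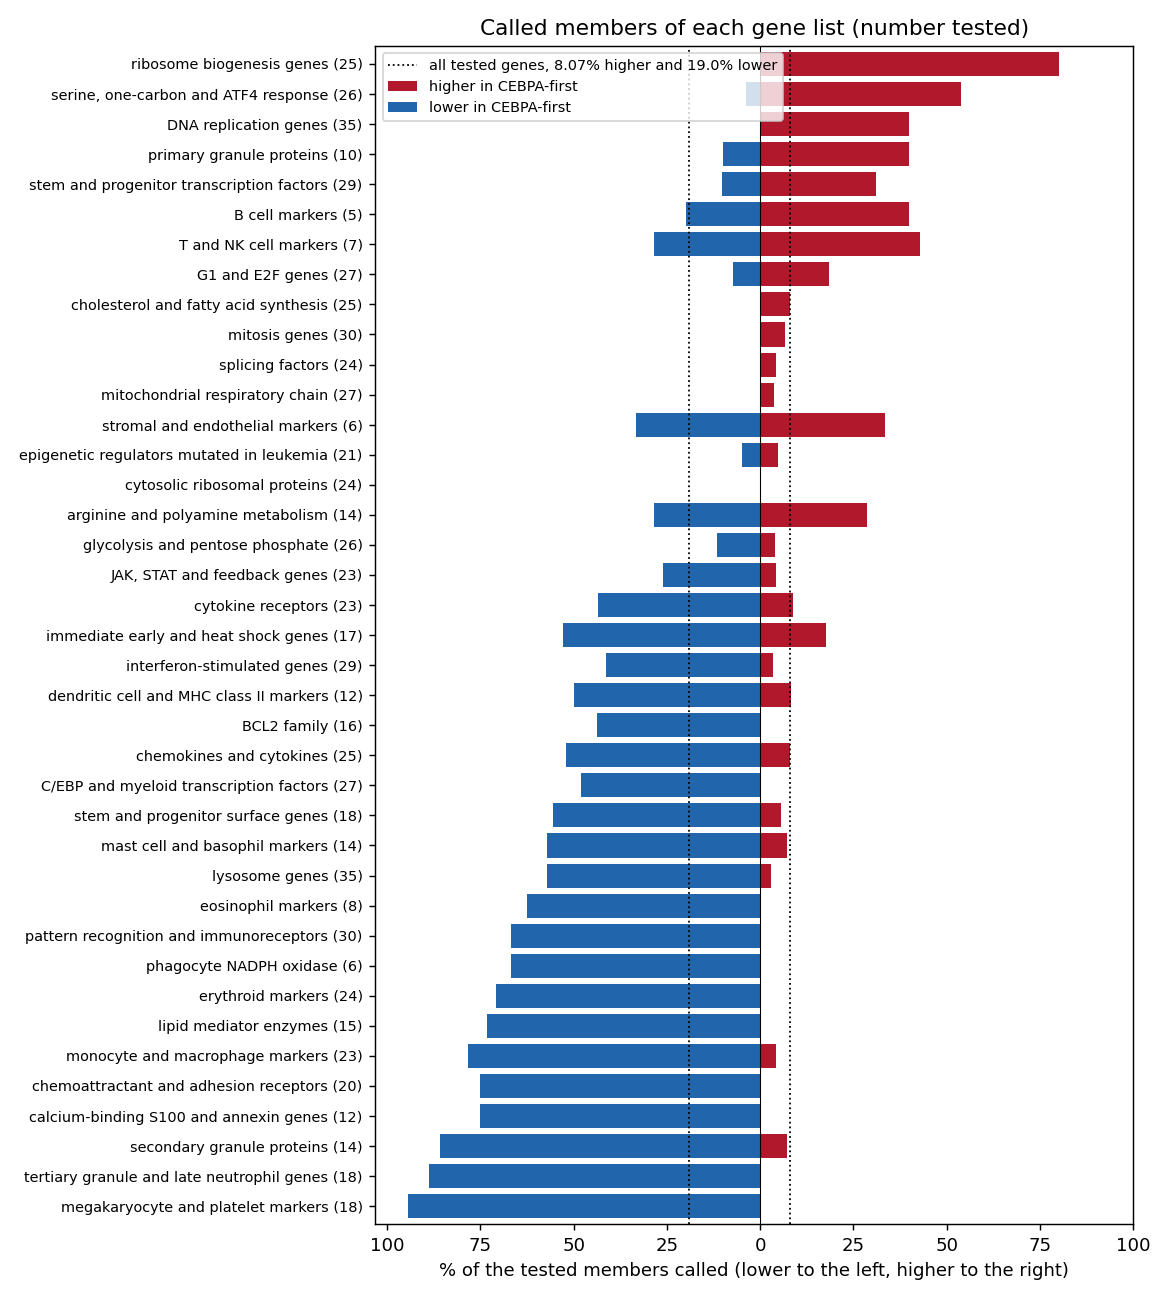
For each of 39 gene lists (y axis, with the number of tested members) the bars give the percentage of tested members called higher (red, to the right) and lower (blue, to the left) in CEBPA-first on the x axis. Dotted lines mark the share of all tested genes, 8.07% higher and 19.0% lower. Ribosome biogenesis genes are at the top, with 20 of 25 higher, and megakaryocyte and platelet markers at the bottom, with 17 of 18 lower.

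The genes that rose most by the naming rule were not granule or stem cell genes. Akr1c18, an aldo-keto reductase that breaks down progesterone, was at 0.13, 0.0601, 0.222 and 0.0633 CPM in CSF3R-only and 101, 71, 91.6 and 65.9 CPM in CEBPA-first (log2 fold change 9.45 ± 0.35, edgeR adjusted p = 4.1e-10; ENSMUSG00000021214, chr13:4132615-4150654 on GRCm38). Sema3c, a secreted semaphorin, was at 0.238, 0.0801, 0.302 and 0.396 CPM and 129, 138, 125 and 92.4 CPM (log2 fold change 8.84 ± 0.23, edgeR adjusted p = 3.5e-11; ENSMUSG00000028780, chr5:17574281-17730268). In the CSF3R-only libraries Akr1c18 had 3 to 11 counts and Sema3c 4 to 25, and in the CEBPA-first libraries both had at least 4165. Chdh, the mitochondrial choline dehydrogenase, was at 2.53, 1.72, 1.87 and 1.85 CPM and 190.0, 202, 181 and 163 CPM (log2 fold change 6.53 ± 0.14, edgeR adjusted p = 7.7e-12). Gstm1, a glutathione transferase, rose from 108 ± 7.84 to 1225 ± 109 CPM (log2 fold change 3.5 ± 0.10, edgeR adjusted p = 1.1e-10), with 51% of its transcript near-identical to other genes. The glutamate receptor gene Gria3 rose from 25.9 ± 2.51 to 257 ± 17.9 CPM, and Igfbp4, an inhibitor of insulin-like growth factors, from 132 ± 19.9 to 985 ± 31.9 CPM. Hspa2, a heat shock protein, Far2, a fatty acyl reductase, and Bace1, the β-secretase, had changes of 3.11 ± 0.11 (edgeR adjusted p = 4.1e-10), 3.06 ± 0.09 (edgeR adjusted p = 1.1e-10) and 3.02 ± 0.07 (edgeR adjusted p = 2.3e-11), with 32.5% of the Bace1 exon bases in another gene.

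Among the genes that fell most by the same rule, several were neither granule proteins nor receptors. Timp3, an inhibitor of metalloproteases, was at 123, 156, 161 and 163 CPM in CSF3R-only and 1.47, 1.7, 2.02 and 1.53 CPM in CEBPA-first (log2 fold change -6.49 ± 0.22, edgeR adjusted p = 2.8e-10), although 21.3% of its exon bases lie in exons of another gene. Clu, clusterin, fell from 126 ± 22.1 to 3.14 ± 0.641 CPM (log2 fold change -5.34 ± 0.21, edgeR adjusted p = 6.4e-10), and Col5a1, a fibrillar collagen gene, from 91 ± 10.4 to 2.21 ± 0.456 CPM (log2 fold change -5.37 ± 0.17, edgeR adjusted p = 1.7e-10). Serpinb10, annotated as a polymorphic pseudogene, had a change of -6.12 ± 0.25 (edgeR adjusted p = 8.4e-10), and Gm5416, a gene of the stefin row, one of -6.49 ± 0.25 (edgeR adjusted p = 6.1e-10). Of the genes the study names, Nos2, the inducible nitric oxide synthase, was at 461, 418, 396 and 425 CPM and 10.6, 9.46, 14.6 and 3.77 CPM (log2 fold change -5.48 ± 0.37, edgeR adjusted p = 5.2e-08). Pla2g7, which degrades platelet-activating factor, was at 1435, 1271, 1149 and 1251 CPM and 90.6, 61.3, 96.8 and 53.7 CPM (log2 fold change -4.08 ± 0.26, edgeR adjusted p = 3.6e-08). E2f2, an activator of S phase genes, was lower without reaching the fold threshold (log2 fold change -0.66 ± 0.07, edgeR adjusted p = 2.2e-06).

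**Figure D5:**
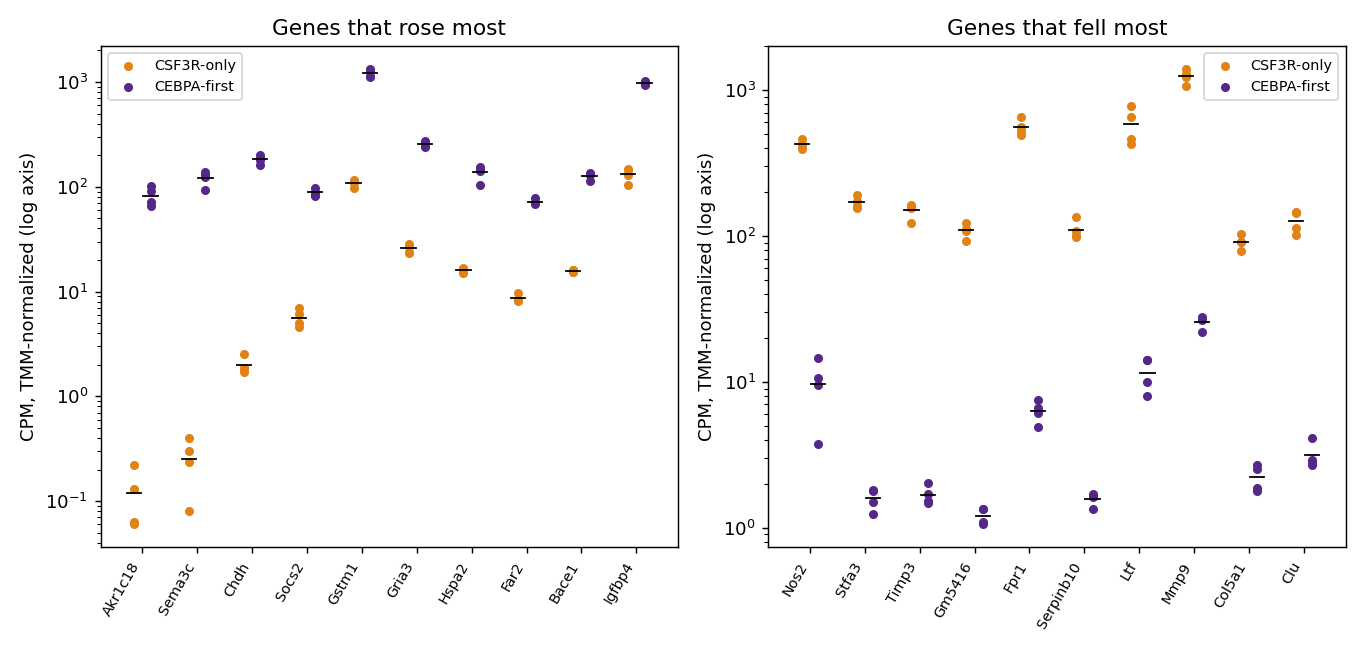
Points are the CPM of single samples on a log y axis and black bars group means, for the 10 genes that rose most (left) and the 10 that fell most (right) by the naming rule, named on the x axis. That rule took called genes with an average log2 CPM of 5 or more whose groups did not overlap, so in no gene shown do the samples of the groups overlap. Akr1c18 and Sema3c lie below 1 CPM in every CSF3R-only sample, and Stfa3, Timp3, Gm5416, Serpinb10 and Col5a1 below 3 CPM in every CEBPA-first sample.

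A few genes were near absent in all samples of a group. There were 12 genes with at most 3 counts in every CEBPA-first library and at least 1 CPM in every CSF3R-only library, and 13 genes of the opposite kind. At 0 throughout CEBPA-first was Kcnf1, a potassium channel gene at 1.66 to 3.01 CPM in CSF3R-only, at least 176-fold higher than the 3 counts that a group total of 0 allows. At 0 throughout CSF3R-only were Stc1, which encodes the hormone stanniocalcin, and Lgi1, at 1.52 to 5.99 CPM and 1.10 to 1.93 CPM in CEBPA-first, at least 226-fold and 99.9-fold higher than that limit. Cxcl5, a neutrophil chemokine, was at 3.15, 4.49, 5.34 and 4.61 CPM in CSF3R-only and had 6 counts over the CEBPA-first samples. Twist1, a factor of mesenchymal cells, had 1 count over the CSF3R-only samples and was at 1.15, 1.53, 1.69 and 2.21 CPM in CEBPA-first. The longest rows of neighbouring tested genes that all rose held 6 genes. One of them, at chr12:109541001-109895093, spans the imprinted non-coding RNA genes Meg3, Rian and Mirg, with log2 fold changes from 1.02 to 2.98, and Meg3 was at 0.691, 1.0, 1.05 and 1.06 CPM and 4.21, 4.04, 4.51 and 3.05 CPM (log2 fold change 2.04 ± 0.17, edgeR adjusted p = 3.2e-07). These genes and rows were picked after their values were seen.

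Most genes of DNA replication and mitosis were higher in CEBPA-first, many by less than the fold threshold. Of 35 tested DNA replication genes, 14 rose and none fell, with a median of 0.98, and 34 were higher at an adjusted p under 0.05 alone, where 35.4% of all genes were. The count of rising members was 23 on plain library sizes and 9 without CSF3R-only replicate A. Cdc6, which loads the replicative helicase, was at 45.8, 58.9, 53 and 49.3 CPM in CSF3R-only and 129.9, 139, 119 and 124 CPM in CEBPA-first (log2 fold change 1.31 ± 0.08, edgeR adjusted p = 2.1e-08). Cdc45 and Mcm6, parts of that helicase, rose from 63.1 ± 6.06 to 143 ± 7.23 CPM (log2 fold change 1.18 ± 0.08, edgeR adjusted p = 3.2e-08) and from 294 ± 34.7 to 639.8 ± 43.4 CPM (log2 fold change 1.12 ± 0.10, edgeR adjusted p = 3.5e-07). Of 30 tested mitosis genes, 2 rose (Ect2 and Anln, both needed for cytokinesis) and all 30 were higher at an adjusted p under 0.05 alone, with a median of 0.72. On plain library sizes 6 rose. Ect2 was at 99, 103, 103 and 106 CPM and 347, 337, 322 and 277 CPM (log2 fold change 1.64 ± 0.08, edgeR adjusted p = 2.0e-09) and Anln had a change of 1.14 ± 0.07 (edgeR adjusted p = 2.2e-08). The proliferation marker Mki67, with values chosen after they were seen, was at 325, 296, 326 and 321 CPM and 356, 370.4, 373 and 381 CPM, the smallest difference in that list (log2 fold change 0.22 ± 0.06, edgeR adjusted p = 0.0039). Among 27 tested G1 and E2F genes, 5 rose and 2 fell, and by adjusted p alone 17 were higher and 9 lower, beside 35.4% and 36.6% of all genes. Ccnd2, cyclin D2, rose from 25.9 ± 5.29 to 81.2 ± 4.53 CPM (log2 fold change 1.65 ± 0.14, edgeR adjusted p = 3.5e-07), and Cdk6, its kinase partner, from 120.4 ± 19.7 to 324 ± 28.5 CPM (log2 fold change 1.43 ± 0.14, edgeR adjusted p = 8.9e-07). Ccne2, cyclin E2, had a change of 1.17 ± 0.08 (edgeR adjusted p = 4.8e-08). The inhibitor gene Cdkn2b and the cyclin gene Ccnd1 fell at levels under 1.1 CPM in all samples (-1.77 ± 0.29 (edgeR adjusted p = 8.9e-05) and -1.11 ± 0.28 (edgeR adjusted p = 0.0028)), and the Ccnd1 call was lost on plain library sizes and without CSF3R-only replicate C or CEBPA-first replicate A.

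The promoters of these lists differed in how often they held E2F and NF-Y letters. The E2F motifs TTTGGCGC or TTTCCCGC were in 10 of 28 DNA replication promoters (35.7%), 5 of 21 G1 and E2F gene promoters (23.8%) and 1 of 25 mitosis promoters (4.0%), beside 3.0% of all tested genes. The NF-Y motif CCAAT was in 20 mitosis promoters (80.0%), 18 DNA replication promoters (64.3%) and 7 G1 and E2F gene promoters (33.3%), beside 38.7% of all. Each motif was counted on both strands. Over all calls, E2F letters were in 3.35% of promoters of rising genes and 1.25% of those of falling genes, and NF-Y letters in 41.0% and 34.4%. Those of the members that rose most and held a match are printed, with matches in capitals, E2F for Cdc6 and Mcm6 and NF-Y for Ect2.
Cdc6 promoter, chr11:98907901-98908200, plus strand: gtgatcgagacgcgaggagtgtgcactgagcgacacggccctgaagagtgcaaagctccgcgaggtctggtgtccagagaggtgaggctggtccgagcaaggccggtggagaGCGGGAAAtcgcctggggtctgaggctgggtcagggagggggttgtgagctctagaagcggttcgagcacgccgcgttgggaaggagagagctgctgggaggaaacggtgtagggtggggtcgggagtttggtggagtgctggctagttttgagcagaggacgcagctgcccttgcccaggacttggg
Mcm6 promoter, chr1:128359656-128359955, minus strand: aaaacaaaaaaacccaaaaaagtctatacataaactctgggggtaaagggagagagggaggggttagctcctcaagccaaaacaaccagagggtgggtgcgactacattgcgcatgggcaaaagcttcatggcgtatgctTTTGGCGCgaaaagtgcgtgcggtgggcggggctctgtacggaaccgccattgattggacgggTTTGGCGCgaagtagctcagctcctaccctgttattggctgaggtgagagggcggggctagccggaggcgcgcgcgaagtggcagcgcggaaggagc
Ect2 promoter, chr3:27153829-27154128, minus strand: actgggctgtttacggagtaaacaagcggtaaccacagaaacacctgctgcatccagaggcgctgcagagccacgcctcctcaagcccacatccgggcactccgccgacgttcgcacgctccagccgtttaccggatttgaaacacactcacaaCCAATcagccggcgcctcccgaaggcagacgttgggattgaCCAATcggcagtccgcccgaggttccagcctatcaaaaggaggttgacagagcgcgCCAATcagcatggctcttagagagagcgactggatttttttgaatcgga
The Cdc6 promoter held 1 match, the Mcm6 promoter 2 and the Ect2 promoter 3.

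Ribosome biogenesis was the program with the largest share of rising genes among the 39 lists. Of 25 tested, 20 rose and none fell, with log2 fold changes from 0.82 to 1.53 and a median of 1.19. Utp20, a component of the small subunit processome, was at 32.5, 35.7, 34.1 and 35.3 CPM in CSF3R-only and 93, 123, 87.1 and 94.9 CPM in CEBPA-first (log2 fold change 1.53 ± 0.15, edgeR adjusted p = 1.0e-06). Nolc1, a nucleolar phosphoprotein, and Gar1, of the pseudouridine-forming particles, rose from 123 ± 16.4 to 343 ± 30.1 CPM (log2 fold change 1.48 ± 0.14, edgeR adjusted p = 7.0e-07) and from 38.1 ± 6.45 to 97.4 ± 7.01 CPM (log2 fold change 1.35 ± 0.13, edgeR adjusted p = 9.5e-07). The genes of the ribosomal proteins themselves moved less. None of 24 tested was called in either direction, although 23 were higher at an adjusted p under 0.05 alone (35.4% of all genes were), with a median of 0.51. Rplp0 and Rpl4, the most abundant, had changes of 0.49 ± 0.08 (edgeR adjusted p = 5.9e-05) and 0.6 ± 0.08 (edgeR adjusted p = 1.7e-05), and 70.3% of the Rplp0 transcript is near-identical to other genes, chiefly pseudogenes. Of 24 splicing factors, 1 rose (Hnrnpa1, 1.18) and 22 were higher by adjusted p alone, beside 8.07% and 35.4% of all genes, with Hnrnpa2b1 and Hnrnpu at 0.63 ± 0.07 (edgeR adjusted p = 2.8e-06) and 0.7 ± 0.08 (edgeR adjusted p = 3.3e-06). On plain library sizes 5 splicing factors rose. The ribosomal protein direction held under each scaling tried for Rplp0 and Rpl4.

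Serine and one-carbon metabolism rose with ribosome biogenesis. Of 26 tested genes of this group and of the ATF4 response, 14 rose and 1 fell. Cth, cystathionine γ-lyase, was at 1.1, 1.68, 1.69 and 1.69 CPM in CSF3R-only and 14.3, 13, 16.2 and 11.7 CPM in CEBPA-first (log2 fold change 3.15 ± 0.16, edgeR adjusted p = 4.6e-09). Psat1, of serine synthesis, was at 96.7, 131, 132 and 119 CPM and 375, 389.6, 357 and 375 CPM (log2 fold change 1.64 ± 0.11, edgeR adjusted p = 3.6e-08), and Gpt2, an alanine aminotransferase, rose from 12.8 ± 1.39 to 40.8 ± 3.87 CPM (log2 fold change 1.67 ± 0.10, edgeR adjusted p = 1.6e-08). The other rising members were Shmt1, Shmt2, Phgdh, Pycr1, Slc1a4, Cbs, Mthfd1, Mthfd2, Psph, Mthfd1l and Aldh18a1. Slc7a11, the cystine transporter, fell from 174 ± 38.9 to 34.1 ± 3.39 CPM (log2 fold change -2.35 ± 0.17, edgeR adjusted p = 9.3e-08).

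Arginine and polyamine genes changed in both directions. Of 14 tested, 4 rose and 4 fell, beside 8.07% and 19.0% of all tested genes. Those that rose included Slc7a1, an arginine transporter, from 40.8 ± 4.92 to 114 ± 6.8 CPM (log2 fold change 1.48 ± 0.11, edgeR adjusted p = 1.4e-07), Srm, spermidine synthase, from 142 ± 22.8 to 388 ± 32.7 CPM (log2 fold change 1.45 ± 0.13, edgeR adjusted p = 6.8e-07), and Odc1, ornithine decarboxylase, by 1.07 ± 0.14 (edgeR adjusted p = 1.1e-05). The Odc1 call was lost without CSF3R-only replicate A (0.97), and 49.8% of its transcript is near-identical to other genes. Of the 26 glycolysis and pentose phosphate genes, 1 rose and 3 fell, both smaller shares than the 8.07% and 19.0% of all genes. Pfkp, a phosphofructokinase, had a change of 1.04 ± 0.10 (edgeR adjusted p = 8.9e-07) that was lost without CSF3R-only replicate A or CEBPA-first replicate C. Pfkfb4, Slc2a3 and Taldo1 fell (-2.23 ± 0.16 (edgeR adjusted p = 1.0e-07), -1.65 ± 0.18 (edgeR adjusted p = 2.5e-06) and -1.06 ± 0.09 (edgeR adjusted p = 2.4e-07)), Taldo1 not on plain library sizes or without the count filter. Of 27 respiratory chain genes, Cox10 alone was called (log2 fold change 1.06 ± 0.10, edgeR adjusted p = 8.1e-07), and not without CSF3R-only replicate A. That share was smaller than the 8.07% of all genes that rose. By adjusted p alone, 23 of the list were higher and none lower, beside 35.4% and 36.6% of all genes. Sdha and Uqcrc1 were at 0.38 and 0.39. Of 25 cholesterol and fatty acid synthesis genes, 2 rose, a share like the 8.07% of all genes, Hmgcs1 (1.06 ± 0.09 (edgeR adjusted p = 4.6e-07)) and Fasn (1.05 ± 0.11 (edgeR adjusted p = 2.0e-06)), the latter not without CEBPA-first replicate B.

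Lysosomal and lipid mediator genes fell. Of 35 tested lysosome genes, 20 fell and 1 rose, with a median of -1.07. The cathepsin genes Ctsb and Ctsd were at 3274, 3114, 2526 and 3034 CPM against 957, 735, 993 and 603 CPM (log2 fold change -1.86 ± 0.20, edgeR adjusted p = 2.1e-06) and at 2699.9, 2492, 2252 and 2395 CPM against 753, 626, 746 and 563 CPM (log2 fold change -1.87 ± 0.13, edgeR adjusted p = 7.1e-08). For Ctsd, 34.4% of exon bases overlap another gene. Mitf, a factor that activates lysosomal genes, fell (log2 fold change -1.9 ± 0.16, edgeR adjusted p = 2.9e-07), and Tfec, of the same family, rose from 41 ± 2.3 to 90.9 ± 10.8 CPM (log2 fold change 1.15 ± 0.09, edgeR adjusted p = 1.4e-07). Of 15 tested lipid mediator genes, 11 fell and none rose. Beside Pla2g7, Tbxas1, thromboxane synthase, was at 74.5, 80.4, 79.9 and 79.9 CPM and 11.1, 10.9, 11.8 and 11.7 CPM (log2 fold change -2.79 ± 0.06, edgeR adjusted p = 7.5e-12), and Hpgd, which inactivates prostaglandins, had a change of -4.1 ± 0.60 (edgeR adjusted p = 4.0e-05) at levels of at most 1.55 CPM.

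Inflammatory and survival genes fell in part. Of 25 tested chemokine and cytokine genes, 13 fell and 2 rose (4 on plain library sizes). Il1b was at 232, 184, 178 and 188 CPM in CSF3R-only and 7.0, 5.08, 7.03 and 7.2 CPM in CEBPA-first (log2 fold change -4.89 ± 0.24, edgeR adjusted p = 3.4e-09). Cxcl2, a neutrophil attractant, fell from 45.6 ± 4.37 to 4.61 ± 0.74 CPM (log2 fold change -3.3 ± 0.25, edgeR adjusted p = 1.5e-07), and Il1a had a change of -3.44 ± 0.69 (edgeR adjusted p = 0.00059), for which DESeq2 gave no adjusted p. Il6 was at 8.12, 11.7, 17.3 and 13.2 CPM and 24.4, 30, 28.4 and 40.3 CPM and rose (log2 fold change 1.29 ± 0.26, edgeR adjusted p = 0.00057). Il10 rose by 1.1 ± 0.23 (edgeR adjusted p = 0.00076), a call lost without CSF3R-only replicate A or D or CEBPA-first replicate D. Of 29 tested interferon-stimulated genes, 12 fell and 1 rose, beside 19.0% and 8.07% of all tested genes. Oas2, Isg15 and Oas3 fell by 2.03, 1.87 and 1.87 on the log2 scale, and Gbp3, a guanylate-binding protein, rose (log2 fold change 1.14 ± 0.13, edgeR adjusted p = 3.7e-06).

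Of 16 tested BCL2 family genes, 7 fell and none rose, beside 19.0% and 8.07% of all tested genes. The falling members were on both sides of the family. Bcl2l11 and Bmf, which promote apoptosis, had changes of -1.66 ± 0.14 (edgeR adjusted p = 4.1e-07) and -1.64 ± 0.17 (edgeR adjusted p = 2.3e-06). Bcl2l1 and Mcl1, which oppose it, fell from 78.5 ± 3.99 to 28.5 ± 1.39 CPM (log2 fold change -1.46 ± 0.07, edgeR adjusted p = 3.1e-09) and from 1264 ± 156 to 486 ± 51 CPM (log2 fold change -1.38 ± 0.13, edgeR adjusted p = 7.4e-07, values chosen after they were seen). Among 17 immediate early and heat shock genes, 9 fell and 3 rose, and these differed by function. Dusp1, Jun and Nfkbia, induced within minutes of a stimulus, fell (-2.8 ± 0.23 (edgeR adjusted p = 2.3e-07), -2.08 ± 0.18 (edgeR adjusted p = 4.7e-07) and -2.01 ± 0.12 (edgeR adjusted p = 1.7e-08)). The chaperone genes Hsph1, Hspe1 and Hsp90aa1 rose (1.26 ± 0.11 (edgeR adjusted p = 4.9e-07), 1.23 ± 0.12 (edgeR adjusted p = 1.3e-06) and 1.06 ± 0.12 (edgeR adjusted p = 3.8e-06)), the last not without CSF3R-only replicate A and with 68.7% of its transcript near-identical to other genes. Of 21 epigenetic regulators mutated in leukaemia, 1 rose, Idh2 (1.07 ± 0.08 (edgeR adjusted p = 1.7e-07)), not without CSF3R-only replicate A, and 1 fell, the histone demethylase gene Kdm6b (-1.17 ± 0.13 (edgeR adjusted p = 4.6e-06)). The remaining 19, among them Dnmt3a, Tet2 and Ezh2, were not called, and both shares were below those of all genes.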

How the data were processed

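RNA was sequenced from sorted lineage-negative bone marrow cells. Libraries were made from total RNA with the SMARTer universal low input kit, which does not mark strand. Reads were trimmed with Trimmomatic, and STAR, DESeq2 and the mm10 build are named without versions in the submitters' processing notes. Versions of Trimmomatic, STAR and DESeq2 are listed in the study's reporting summary. The counting program and annotation are not given in the sources used here. The authors deposited raw, whole-number counts per Ensembl gene, without normalization or pooling. Of 51912 identifiers, 51633 had a symbol in the reference tables, and the other 279 held at most 0.0279% of a library. Positions come from GENCODE release M21 of GRCm38, the same build as mm10.

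Counts were analysed in R 4.3.3 with edgeR 4.0.16. After filterByExpr (15703 genes) and TMM normalization, a quasi-likelihood model of the 3 groups (11 samples, no covariate) was fitted, and CEBPA-first (n = 4) was compared with CSF3R-only (n = 4). Calls needed a Benjamini-Hochberg adjusted p under 0.05 and a log2 fold change of at least 1. A standard error is |log2 fold change| over the root of edgeR's F. Replicates within groups were further apart than sampling noise (chi-square per degree of freedom 9.95 to 43.0), so each counted as 1 sample. A test on simulated data for this comparison changed 200 of 15703 genes, as many up as down. At an adjusted p under 0.05 alone, 79 of 100 genes changed 2 fold and 93 of 100 changed 4 fold were recovered. The fold threshold was not applied to these, so the numbers do not give the recovery of calls. It was applied to the unchanged genes, of which 3 were called. In the data 27.0% of genes were called, more of them lower than higher. Counts of at most 3 (0.0383 to 0.0648 CPM) were taken as the detection limit, which covers counting error only.

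The 39 gene lists (809 genes, 773 tested) were chosen by knowledge of the pathways, and the comparison, its members and these lists were chosen with earlier results of these data known, so they are not independent evidence. Genes given with values were the mouse genes of the vectors, genes the study names, the 10 that rose and 10 that fell most among called genes (average log2 CPM over the 11 samples 5 or more, groups not overlapping), and up to 3 rising and 3 falling called members per list, or the 2 most abundant where fewer than 2 were called. Any others are said to be chosen after their values were seen. Some genes these rules take in are part of the counts but are not reported here. The list symbol Il36g was matched to its older name. Near-identical stretches in other genes (at least 100 bases at 97% identity) were searched with BLAST 2.17.0 from each gene's longest transcript. Promoters were read from a RefSeq table, which held 10936 of the tested genes by symbol, the one nearest the annotated start where there were several. Alternatives were DESeq2 1.42.0, other normalizations and count filters, the 8 samples alone, a replicate block, other thresholds, and each sample left out in turn. No protein sequences were used here.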

Additional observations from a re-analysis of the deposited data

Results flagged for a closer look

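In 19 of 362 groups of 4 samples examined for the genes with values, 1 sample stood apart from the other 3, its gap to the nearest, as a share of the group's range, lying above Dixon's critical value. Chance alone gives about 1 in 20, which is 18.1 groups. Among falling or lower genes, CSF3R-only replicate A was high for Klf2 (284.3 CPM, the nearest 241.9) and Maf (50.75, nearest 46.22) and low for Tbxas1 (74.53, nearest 79.9). CSF3R-only replicate C was high for Meis1 (20.9, nearest 18.28) and CSF3R-only replicate D for Il1a (1.552, nearest 1.382). In CEBPA-first, replicate C was high for Clu (4.09, nearest 2.924), replicate D for Cst7 (64.98, nearest 53.22) and Ear6 (0.5363, nearest 0.0768), and replicate B low for Il1b (5.081, nearest 7.001).

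Among rising or higher genes, CSF3R-only replicate A was low for Cth (1.101, nearest 1.682), Gpt2 (10.73, nearest 13.24), Lck (1.166, nearest 1.882) and Meg3 (0.6911, nearest 1.001). CSF3R-only replicate B was high for Ccne2 (61.98, nearest 53.56), Sdha (339.0, nearest 317.4) and Twist1 (0.02002, the only sample with a count) and low for Mki67 (296.3, nearest 321.4). CSF3R-only replicate C was high for Far2 (9.675, nearest 8.393) and Pdgfrb (6.43, nearest 5.416). In each of these genes the samples of the groups did not overlap.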

How the results depend on the processing

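The direction of the comparison held under each alternative run: more genes fell than rose with DESeq2 (1464 higher, 3308 lower), other size factors, the 8 samples alone (1206 and 2722) and no count filter (1783 and 3393). Changing the threshold moved the counts by over 1.5 times. The adjusted p alone gave 11314 genes, 5561 higher and 5753 lower, and with glmTreat, which tests against the fold threshold, 2495 genes, 583 higher and 1912 lower. With at least 10 counts in every sample, where fewer genes were tested, 791 rose and 2066 fell. Without each sample in turn there were 3893 to 4339 genes past the threshold, 1111 to 1340 higher and 2782 to 3030 lower, the fewest without CSF3R-only replicate A. Same-lettered samples deviated together only in part (correlations 0.101, 0.126, 0.0629 and 0.363 for A to D, and CSF3R-only B was closer to CEBPA-first A than to its own letter), so the letters were not taken to pair samples. With the letter as a replicate block there were 3948 genes, 1226 higher and 2722 lower. The glmTreat and adjusted p thresholds were not applied gene by gene. Under the other alternatives, where a gene had a value, none of the 181 genes with values changed sign, 161 kept their side of the threshold, and the other 20 had log2 fold changes of 0.88 to 1.15 in size. With at least 10 counts in every sample, 159 of the 181 could be tested. Low-level genes rest on few counts, which limits their precision.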
